A study of Mus musculus with 8 samples.

Results

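Cytosolic ribosomal proteins are the protein components of the ribosomes that translate messages made in the nucleus. In the deposited mouse gene table, 85 of 45777 genes belong to this family. They are the protein-coding rows named Rpsa, Rplp0, Rplp1 or Rplp2 and those named Rps or Rpl with a number, without Rps6 kinases and pseudogenes. The rule goes by names and not by values, though the family was chosen with earlier results of these data known. There were 32 genes of the small subunit and 53 of the large subunit, and the count includes paralogs such as Rpl22l1, Rpl39l and Rps27l.

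Ribosomal proteins are made in amounts that match one another, because the subunits are assembled in the nucleolus from one copy of nearly every protein together with ribosomal RNA. Their messages are among the most abundant of most cells. In vertebrates they characteristically begin with a 5′ terminal oligopyrimidine (TOP) tract, a C followed by a run of C and T, through which the growth-regulating kinase mTORC1 and the binding protein LARP1 control their translation and storage. Hepatic stellate cells store vitamin A in the liver and become producers of extracellular matrix when they activate.

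The tested cells were primary hepatic stellate cells of male wild-type C57BL/6 mice transfected with siRNA against PAK4 (siPAK4, 4 libraries), a p21-activated kinase, and the same kind of cells transfected with a control siRNA (siControl, 4 libraries). All carried 1 batch label, and polyadenylated RNA was sequenced. The labels give neither the age of the mice nor the time after transfection, and do not say whether replicates came from separate mice, so p-values measure the spread between these libraries, which may be technical. A partial knockdown with an siRNA lowers a message without removing it.

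Libraries held 55728583 to 61535063 counts. Pak4 itself was at 7.73, 5.70, 5.17 and 6.69 CPM (counts scaled to a fixed library size) in siPAK4 replicates 1 to 4, against 18.6, 17.7, 16.4 and 16.2 CPM in siControl replicates 1 to 4, with no overlap (edgeR quasi-likelihood test, log2 fold change −1.44, SE 0.118, adjusted p = 9.4e-06). On the second principal component siPAK4 replicate 3 lay at −22.4 and the other siPAK4 libraries between 5.53 and 11.8. Summed stellate cell markers stood at 967 to 1188 CPM in siPAK4 and 1574 to 2001 CPM in siControl, with 11 of 12 markers tested, 6 lower and 0 higher. Markers of other cells of the liver were present too. Endothelial markers summed to 2707 to 4011 CPM in siPAK4 and 4743 to 4804 CPM in siControl (8 of 8 tested, 4 lower, 2 higher), and macrophage markers to 1063 to 1452 CPM in siPAK4 and 1818 to 2129 CPM in siControl (9 of 10 tested, 6 lower, 0 higher). Hepatocyte markers summed to 6.41 to 14.1 CPM in siPAK4 and 1.53 to 2.75 CPM in siControl, with 3 of 8 tested and 3 higher. Cholangiocyte markers summed to at most 4.64 CPM in siPAK4 and 5.83 CPM in siControl, lymphocyte markers to at most 1.33 CPM in siPAK4 and 1.34 CPM in siControl, and erythroid markers to at most 0.375 CPM in siPAK4 and 0.625 CPM in siControl. These marker levels moved with the groups, and their part in the ribosomal protein values was not tested. Fewer cells of a type and less RNA per cell cannot be told apart in such bulk samples.

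The sequence feature for which the family is known was seen at the annotated starts of only part of its genes. RefSeq promoters (build GRCm38.p6, also called mm10) were at hand for 65 of the 85 genes. A C at the annotated start followed by at least 4 pyrimidines was found for 14 of the 65 (21.5%), against 799 of 26960 other genes (2.96%). When the start was allowed to be off by up to 2 bases, 22 of 65 genes (33.8%) had such a tract, against 10.5% of the other genes. Examples of 5 genes with the tract and 4 genes that passed the test below are printed from 20 bases before the annotated start to 10 bases from it, with the pyrimidine run that touches the start in capitals. They are shown because a reader can see in them how the tract varies within the family.
Rps6, chromosome 4, 86857358 to 86857387, minus strand: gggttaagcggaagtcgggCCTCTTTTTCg
Rpl15, chromosome 14, 18270977 to 18271006, minus strand: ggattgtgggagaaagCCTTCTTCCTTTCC
Rps18, chromosome 17, 33955656 to 33955685, minus strand: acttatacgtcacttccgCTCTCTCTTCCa
Rplp2, chromosome 7, 141447631 to 141447660, plus strand: cccactgcgtcagcgTCTTCCTTTCgccgc
Rps27, chromosome 3, 90213639 to 90213668, minus strand: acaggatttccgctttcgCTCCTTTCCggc
Rps24, chromosome 14, 24490658 to 24490687, plus strand: acgcccccgcgctggggTCCTTCCTTgcgc
Rpl39, chromosome X, 37085213 to 37085242, minus strand: ccccccctaagctccgCCTCTagcgacttc
Rpl22l1, chromosome 3, 28805488 to 28805517, plus strand: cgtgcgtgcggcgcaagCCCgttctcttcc
Rplp0, chromosome 5, 115559447 to 115559476, plus strand: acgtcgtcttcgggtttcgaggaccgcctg

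The letters CTTTCC, the core of many such tracts, lay within 20 bases of the start in 16.9% of the 65 genes and 2.26% of the others. On either strand of the 250 bases before the start, CCGGAAG, which ETS factors such as GABPA bind, occurred in 29.2% of the 65 genes and 7.77% of the others. AAGATGG, part of the site of YY1, occurred in 7.69% and 5.18%. GGGCGG, the core that SP1 binds, occurred in 50.8% and 35.3%. Among tested protein-coding genes outside the family the shares were 14.3% for CCGGAAG, 4.96% for AAGATGG and 61.0% for GGGCGG. A match is a description of letters and not of a bound site.

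Of the 85 genes, 83 had enough reads to be tested: all 32 of the small subunit and 51 of the large subunit. Both genes left out are paralogs. Rpl10l, known as a testis copy of Rpl10, had 0 counts in all 8 libraries, where a count of 0 allows up to 0.0538 CPM. Rpl3l, known from muscle, had 4, 10, 9 and 6 counts in siPAK4 and 9, 7, 0 and 12 in siControl.

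The family moved little, and mostly in one direction. With siPAK4, 8 of the 83 tested genes fell and 0 rose (edgeR's quasi-likelihood test, adjusted p under 0.05 over all 17975 tested genes), which is 9.64%, where 26.9% of all tested genes were called, 14.5% lower and 12.4% higher. At an unadjusted p under 0.05 there were 23 genes, 22 of them lower, while 26.9% of all tested genes passed even the stricter adjusted threshold. Point estimates lay below 0 for 73 genes and above 0 for 10. Over all tested genes 8843 lay below 0 and 9132 above. The family's count below 0 was 52 when library totals replaced TMM scaling. The median log2 fold change was −0.105, against 0.00517 over all tested genes, and single genes lay between −0.36 (Rpl22l1) and 0.15 (Rpl13). For 79 of the 83 genes the 95% interval stayed within 0.5 log2 units of 0. The groups did not overlap for 8 genes, with siPAK4 below in each (9.64% of 83, against 28.8% of all tested genes in either direction and 14.8% with siPAK4 below).

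These genes were measured more tightly than most. Their median standard error was 0.0714 on the log2 scale, against 0.105 over all tested genes. Of the 644 tested genes at least as abundant as the lower quartile of the family, 40.7% were called. The median size of the change, whatever its sign, was 0.107 in the family and 0.191 over all tested genes.

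**Figure D1:**
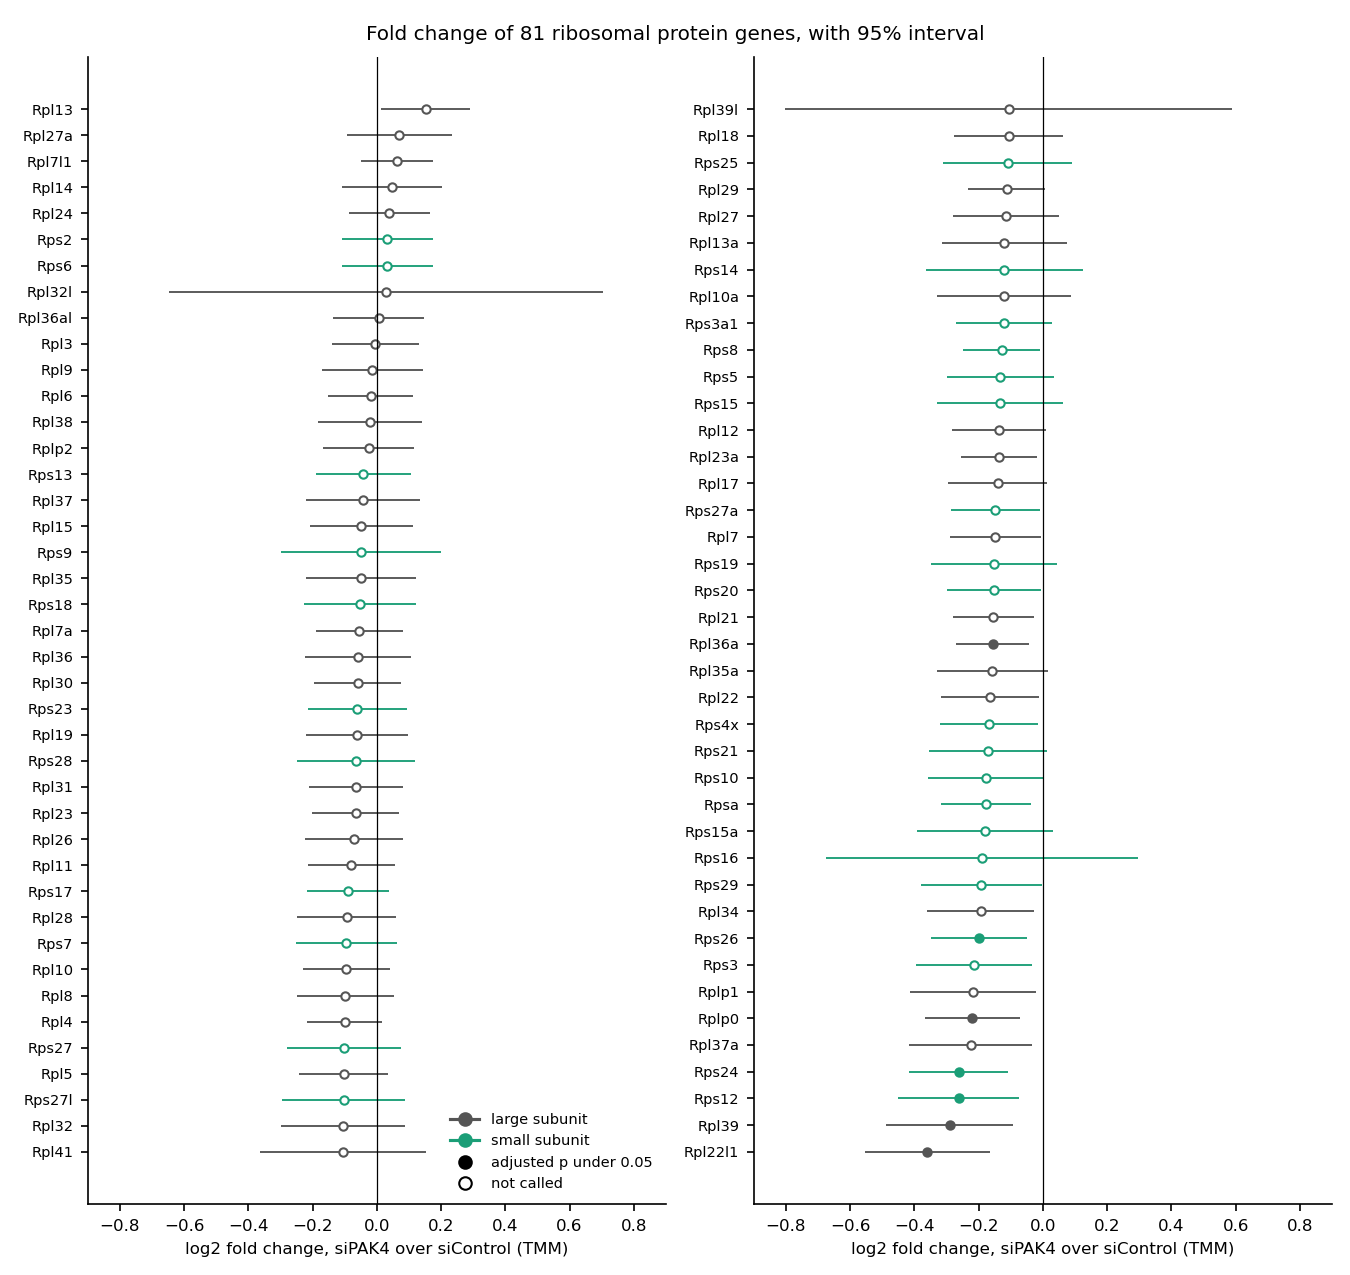
Log2 fold change of siPAK4 over siControl for 81 of the 83 tested ribosomal protein genes, ordered by size, with 95% intervals from edgeR (x axis, TMM scaling; green, small subunit; grey, large subunit; filled, adjusted p under 0.05). Most points lie left of 0 within a narrow band, and the 7 filled points all lie left of 0.

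The large subunit held 5 of the 8 genes that fell. Rpl22l1 (NCBI gene 68028, chromosome 3, 28805508 to 28807424, plus strand), the paralog of Rpl22, was at 43.6, 49.8, 58.0 and 44.0 CPM in siPAK4 replicates 1 to 4, against 58.1, 61.5, 67.1 and 64.1 CPM in siControl replicates 1 to 4. The highest siPAK4 library came close to the lowest siControl library, but the groups did not overlap. Its mean was 48.9 ± 6.72 CPM in siPAK4 and 62.7 ± 3.79 CPM in siControl (SD, n = 4 each). The log2 fold change was −0.36, with an SE of 0.0895 and an adjusted p of 0.0115. Rpl22l1 was called lower in all 8 fits that left out 1 library.

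Rplp0 encodes the base of the stalk that recruits elongation factors and is often used to normalise PCR. It was at 1073, 1048, 1179 and 1059 CPM in siPAK4, against 1165, 1257, 1294 and 1360 CPM in siControl. Only siPAK4 replicate 3 exceeded a siControl library, replicate 1 (log2 fold change −0.22, SE 0.0675, adjusted p = 0.0312). Rpl39, whose small product lines the exit tunnel for the nascent chain, was at 154, 133, 177 and 136 CPM in siPAK4, against 176, 167, 197 and 193 CPM in siControl. Here too siPAK4 replicate 3 reached into the siControl range (log2 fold change −0.29, SE 0.0907, adjusted p = 0.0339).

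Rpl36a, a large subunit protein near the exit site for transfer RNA, was at 196, 195, 205 and 187 CPM in siPAK4, against 212, 225, 212 and 224 CPM in siControl. The groups did not overlap, and the difference was the smallest of those called (log2 fold change −0.16, SE 0.0518, adjusted p = 0.0423). Its call was kept in 1 of the 8 fits that left out 1 library, the one without siPAK4 replicate 3.

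The small subunit held the other 3. Rps24 (NCBI gene 20088, chromosome 14, 24490678 to 24496960), one of the genes mutated in Diamond-Blackfan anaemia in people, was at 645, 628, 731 and 585 CPM in siPAK4, against 765, 754, 781 and 804 CPM in siControl. The groups did not overlap (647 ± 61.3 CPM in siPAK4 and 776 ± 21.6 CPM in siControl, SD, n = 4 each), and the log2 fold change was −0.26 (SE 0.0704, adjusted p = 0.0168). Its call was lost in 1 of the 8 fits, without siPAK4 replicate 2 (the adjusted p was then 0.0569).

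Rps12, a small subunit protein that in Drosophila takes part in cell competition, was at 469, 439, 525 and 408 CPM in siPAK4, against 494, 542, 558 and 613 CPM in siControl (a log2 fold change of −0.26 with SE 0.0865 and adjusted p = 0.0420). Rps26, which lies where the message leaves the small subunit, was at 209, 191, 230.4 and 212 CPM in siPAK4, against 249.7, 248, 219 and 251 CPM in siControl. In both genes 1 siPAK4 library, replicate 3, exceeded the lowest siControl library. Rps26 was only just past the threshold (log2 fold change −0.20, SE 0.0685, adjusted p = 0.04995). Rplp0, Rpl39, Rps12 and Rps26 were each called in 2 of the 8 fits that left out 1 library, among them the fit without siPAK4 replicate 3.

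**Figure D2:**
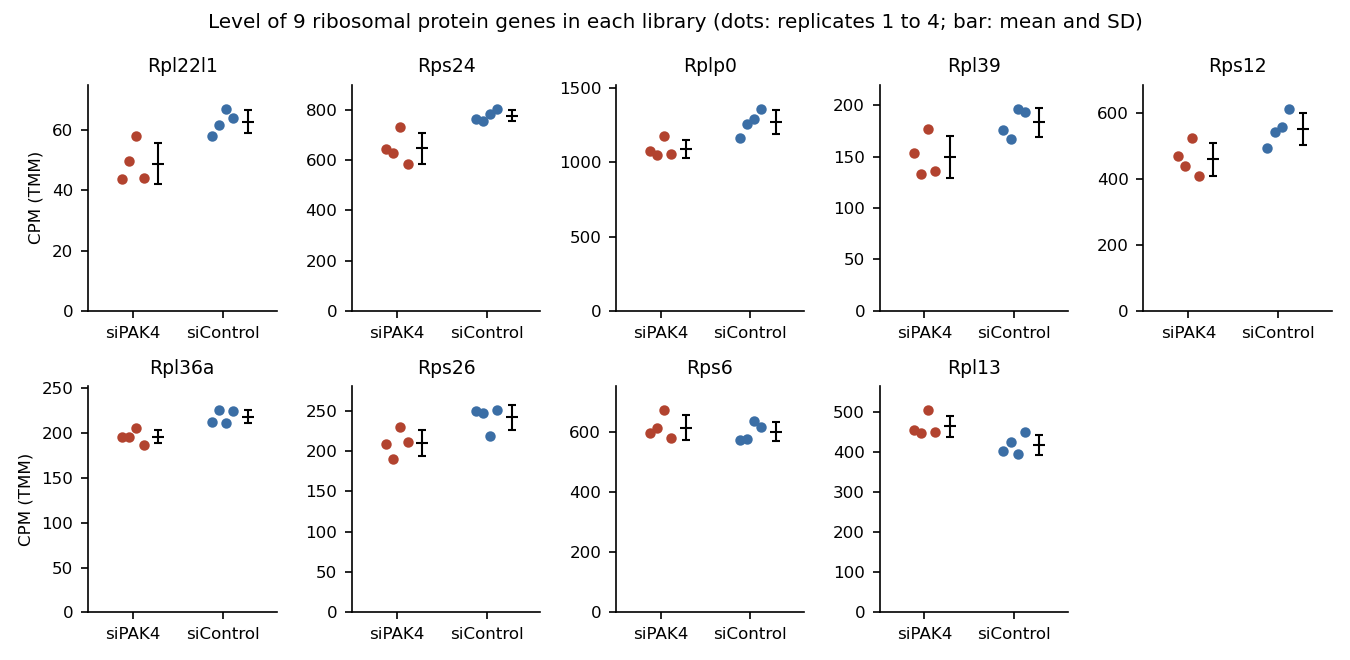
CPM (TMM scaling, y axis from 0) of 7 ribosomal protein genes that fell, with Rps6 and Rpl13 beside them, in siPAK4 (red, left) and siControl (blue, right) libraries; points are replicates 1 to 4 and bars the mean and SD. Rpl22l1, Rps24 and Rpl36a show no overlap, while in Rplp0, Rpl39, Rps12 and Rps26 siPAK4 replicate 3 reaches into the siControl range.

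Several well-known members did not pass. Rps6, the substrate that S6 kinases phosphorylate downstream of mTORC1, was at 595, 611, 671 and 578 CPM in siPAK4, against 572, 577, 637 and 615 CPM in siControl. The groups overlapped, and the log2 fold change was 0.03 with an interval from −0.11 to 0.17 (adjusted p = 0.763). Rpl5 and Rpl11, which with 5S ribosomal RNA bind MDM2 and so link ribosome assembly to p53, had log2 fold changes of −0.10 (interval −0.24 to 0.03, adjusted p = 0.260) and −0.08 (interval −0.21 to 0.06, adjusted p = 0.386). Rps19, the gene most often mutated in Diamond-Blackfan anaemia in people, was at −0.15 (adjusted p = 0.239), and Rpl13a, which takes part in silencing of inflammatory messages in human monocytes, at −0.12 (adjusted p = 0.361).

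Rpsa, the small subunit protein also known as a laminin receptor, came nearer. It was at 1049, 1036, 1156 and 1042 CPM in siPAK4, against 1120, 1207, 1240 and 1275 CPM in siControl, and siPAK4 replicate 3 alone reached into the siControl range. The log2 fold change was −0.18 (SE 0.0647, adjusted p = 0.0633). DESeq2 and limma-voom put Rpsa past the threshold.

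Rpl13, a large subunit protein, had the highest log2 fold change and is named after its values were seen. It was at 454, 448, 504 and 449 CPM in siPAK4, against 402, 425, 394 and 449.5 CPM in siControl. The lowest siPAK4 values lay just below the highest siControl value, and the log2 fold change was 0.15 with an interval from 0.01 to 0.29 (adjusted p = 0.1002).

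Per length, the most abundant messages were those of Rplp1, Rpl41, Rps2, Rpl26 and Rpl19, which encode a stalk protein, a very short basic peptide, a protein near the decoding site and a pair of proteins near the exit tunnel or the subunit surface. Rplp1 was at 2825 ± 216 TPM (transcripts scaled for length and to a fixed total) in siPAK4 and 3195 ± 293 TPM in siControl (SD, n = 4 each), and it was the highest of the family in all 8 libraries. Rpl41 was at 2332 ± 164 TPM in siPAK4 and 2444 ± 351 TPM in siControl, Rps2 at 2416 ± 92.5 TPM in siPAK4 and 2297 ± 105 TPM in siControl, Rpl26 at 2204 ± 195 TPM in siPAK4 and 2251 ± 90.5 TPM in siControl, and Rpl19 at 2132 ± 140 TPM in siPAK4 and 2153 ± 130 TPM in siControl. The ranges of Rpl41, Rpl26 and Rpl19 overlapped in both groups, while in siPAK4 all libraries of Rps2 lay above those of Rpl19. Of the counts, none of these 5 genes was called (log2 fold changes from −0.22 for Rplp1, adjusted p = 0.0949, to 0.03 for Rps2, adjusted p = 0.757).

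Levels per length spanned 28.4-fold, from 106 to 3010 TPM on average, across the 81 genes above 100 TPM. A level per length depends on the gene model: Rps15a and Rps20 carry implied lengths of 5686 and 3815 bases, far over the 578 bases of Rps12. At the low end Rpl7l1 averaged 110 ± 8.85 TPM in siPAK4 and 102 ± 3.96 TPM in siControl. Rpl39l, known from male germ cells, was at 1.32 ± 0.399 TPM in siPAK4 and 1.42 ± 0.587 TPM in siControl, and Rpl32l at 0.835 ± 0.121 TPM in siPAK4 and 0.811 ± 0.0648 TPM in siControl. Rpl32l had a log2 fold change of 0.03, with an interval from −0.65 to 0.71 that limits what it can show.

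Genes differed in how far replicates spread. The within-group SD on the log2 scale was 0.032 for Rpl4, a core large subunit protein at 935 to 968 CPM in siPAK4 and 985 to 1048 CPM in siControl. It was 0.393 for Rps16, whose product reaches towards the transfer RNA in the small subunit. Rps16 was at 116, 70.5, 145 and 121 CPM in siPAK4, against 143, 119, 94.4 and 160 CPM in siControl, with replicates of each group spanning the other (log2 fold change −0.19, interval −0.67 to 0.30). For Rps9 siPAK4 replicate 3 stood apart at 891 CPM, against 596 to 657 CPM in the other siPAK4 libraries and 670 to 748 CPM in siControl.

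The family's summed level overlapped between groups. Its genes took 3.68, 3.63, 3.94 and 3.40% of all counts in siPAK4 replicates 1 to 4, against 3.39, 3.76, 3.70 and 3.98% in siControl replicates 1 to 4, with means of 3.66 ± 0.221% in siPAK4 and 3.71 ± 0.243% in siControl. In the share of TPM the means were 9.99 ± 0.631% in siPAK4 and 10.5 ± 0.431% in siControl. The ratio of small to large subunit counts was 0.676 ± 0.0118 in siPAK4 and 0.689 ± 0.0042 in siControl, again with overlap. By subunit the median log2 fold change was −0.13 for the small and −0.0984 for the large subunit, a difference that was not tested.

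Much of the family's variation was shared within a library. Each gene's log2 CPM was set against its mean over all libraries, and the median over the 83 genes was −0.05, −0.07, 0.08 and −0.13 in siPAK4 and −0.07, 0.07, 0.07 and 0.14 in siControl. The mean deviation of each library, with the difference between the groups included, held 48.8% of the family's sum of squares. The highest siPAK4 library, replicate 3, and the lowest siControl library, replicate 1, each lay within the range of the opposite group. Replicate 3 is also the library set apart on the second principal component.

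**Figure D3:**
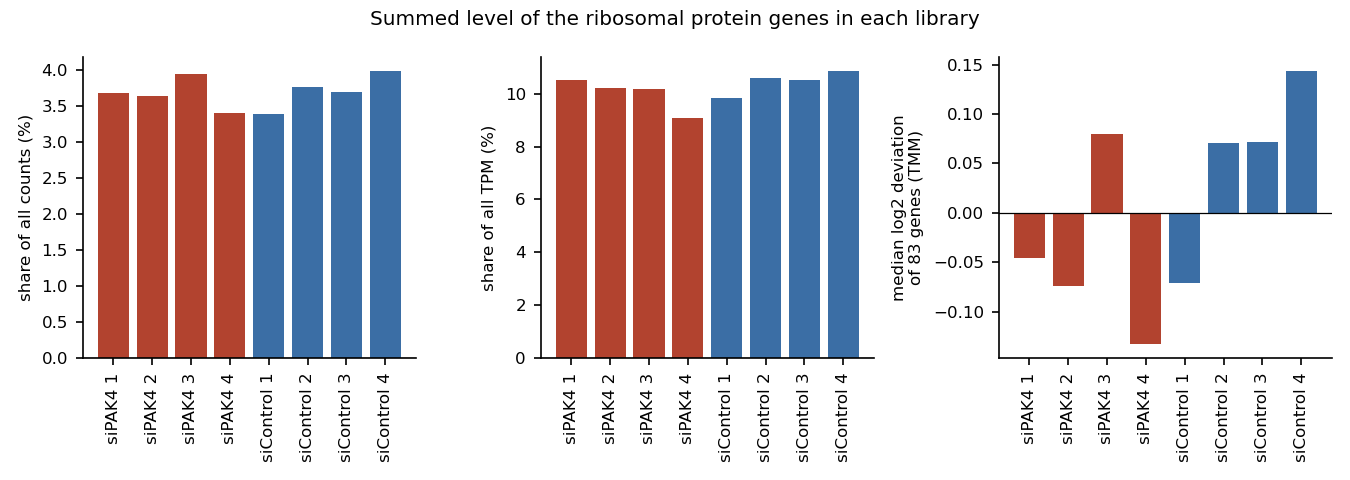
Summed level of the ribosomal protein genes in each library (red, siPAK4; blue, siControl) as the share of all counts, the share of all TPM, and the median over 83 genes of the log2 deviation from the gene's mean with TMM scaling. The groups overlap in all 3 panels; siPAK4 replicate 3 and siControl replicate 1 lie on the side of the opposite group in the third.

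The count of genes that fell rested on those libraries. Without siPAK4 replicate 3 it was 28 (33.7% of the family, where 30.2% of all tested genes were called in either direction). Without siControl replicate 1 it was 13 (15.7%, against 22.9% of all tested genes). Leaving out any other library gave 2 to 4 (2.41 to 4.82%, against 19.4 to 23.1% of all tested genes). The count rested on the scaling as well. With library totals in place of TMM, which moved the median of all genes to 0.0938, 3 ribosomal protein genes were higher, Rpl13 and Rpl7l1 among them, and 1 was lower (Rpl22l1), with a family median of −0.0167. That was 4.82% of the family called, against 31.9% of all tested genes. With deposited FPKM and a pseudocount of 1, Rpl13 was higher and 0 genes were lower (1.2% of the family called, against 29.7% of all tested genes). Relative to the median of all genes, the family median lay at −0.157 to −0.0611 in every setting tried, the 8 left-out libraries included.

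**Figure D4:**
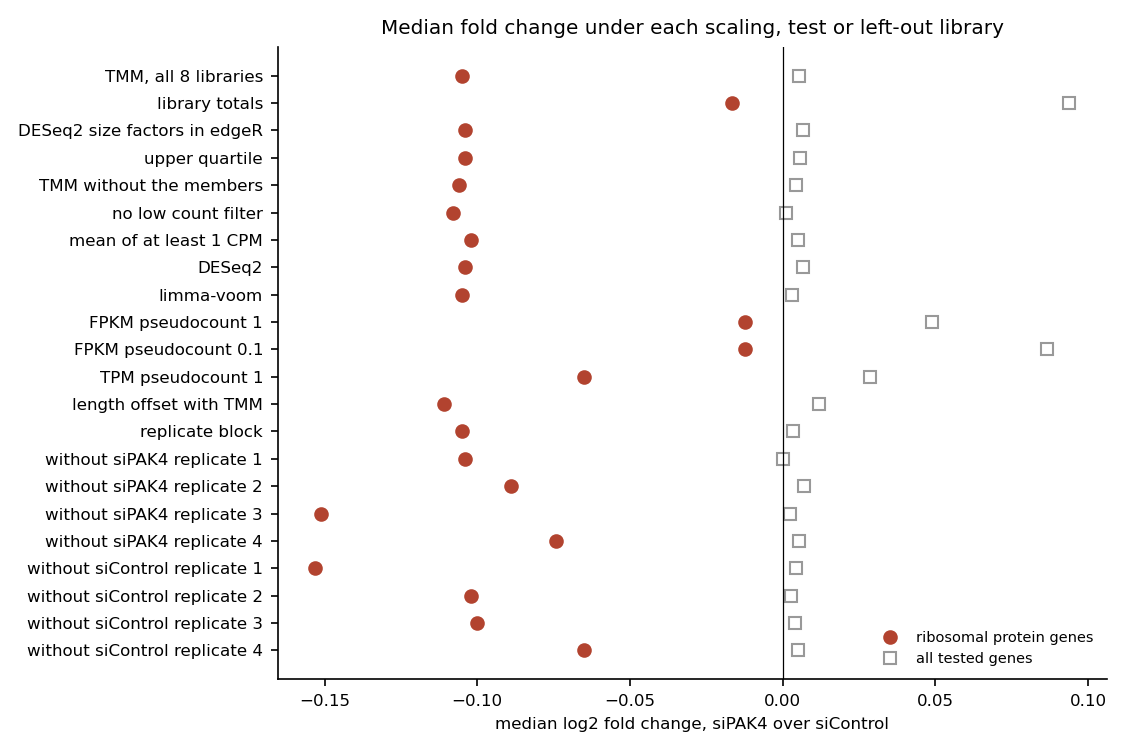
Median log2 fold change of siPAK4 over siControl for the ribosomal protein genes (red) and for all tested genes (open squares) under each scaling, test or left-out library. The family's median lies left of the median of all genes in each row, and both move to the right with library totals and FPKM.

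Paralogs were compared with the gene they resemble through the log2 ratio of their CPM in each library, which does not depend on the scaling of the library. With 4 libraries against 4 the exact two-sided permutation test cannot give a p below 0.0286, and 6 pairs were tested. The ratio of Rpl22l1 to Rpl22 was −2.15, −2.01, −1.95 and −2.03 in siPAK4, against −1.84, −1.90, −1.74 and −1.86 in siControl. It was lower in every siPAK4 library (difference −0.20, exact p = 0.0286, adjusted over the pairs 0.0429). In mice the Rpl22 protein is known to hold down expression of Rpl22l1. Rpl22 itself had a log2 fold change of −0.16 (adjusted p = 0.104).

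The ratio of Rpl7l1 to Rpl7 moved the other way. Rpl7l1 is related to the yeast assembly factor Rlp7. The ratio was −2.58, −2.61, −2.75 and −2.64 in siPAK4, against −2.84, −2.82, −2.85 and −2.91 in siControl, higher in every siPAK4 library (difference 0.21, exact p = 0.0286, adjusted 0.0429). By themselves Rpl7l1 (0.06, adjusted p = 0.413) and Rpl7 (−0.15, adjusted p = 0.116) did not pass.

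Rpl36al, a close copy of Rpl36a, likewise took a larger part of its pair, at −0.87, −0.84, −0.69 and −0.84 in siPAK4, against −0.92, −1.03, −0.95 and −0.98 in siControl (difference 0.16, exact p = 0.0286, adjusted 0.0429). Rpl36al by itself had 112 ± 10.4 CPM in siPAK4 and 111 ± 2.06 CPM in siControl. Rps4l, a transcribed copy that the annotation lists as a pseudogene and that is not among the 85 genes, rose relative to Rps4x in the same way (mean log2 ratio −5.58 ± 0.15 in siPAK4 and −5.96 ± 0.172 in siControl, difference 0.38, exact p = 0.0286, adjusted 0.0429).

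The ratio of Rps27l, a p53 target in people, to Rps27 differed by −0.0083 between siPAK4 and siControl (exact p = 0.971), and that of Rpl39l to Rpl39 by 0.23 (exact p = 0.486, adjusted 0.583), with SDs of 0.495 in siPAK4 and 0.517 in siControl. Near-identical copies may share reads, since the handling of reads that match several genes is not given in the sources used here. Rows annotated as ribosomal protein pseudogenes held 0.0662 ± 0.00304% of counts in siPAK4 and 0.0645 ± 0.00595% in siControl. Of 117 tested among 227 such rows, 1 was lower and 0 higher (0.855% called).

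Related genes were examined with the same fit. Among ribosome components with other names, Fau (−0.08, adjusted p = 0.543) and Rack1 (−0.07, adjusted p = 0.505) did not pass. Among 20 translation factors and partners listed for TOP tracts described in their messages, 6 fell and 0 rose, with a median of −0.0484. That is 30% called, all lower, against 26.9% of all tested genes called in either direction and 14.5% called lower. Of the 14 with a promoter in the table, 2 had the tract at the annotated start and 4 within 2 bases.

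Tpt1, the translationally controlled tumour protein, was at 506, 517, 526 and 472 CPM in siPAK4, against 739, 698, 702 and 618 CPM in siControl, without overlap (log2 fold change −0.45, adjusted p = 0.000514). Eef2, the factor that translocates the ribosome, was at 1981, 1894, 1885 and 2060.5 CPM in siPAK4, against 2284, 2400.2, 2240.4 and 2371 CPM in siControl (−0.25, adjusted p = 0.0104). Eef1b2, the exchange factor of elongation factor 1 (−0.25, adjusted p = 0.00937), and Eif3h, a subunit of initiation factor 3 (−0.23, adjusted p = 0.00826), also fell. Other initiation factors went both ways, with 4 higher and 3 lower of 28 (25% called). Of these, Eif3g (0.31) and Eif3d (0.24) of initiation factor 3 rose with Eif1b (0.20), and Eif2b2 (−0.28), part of the exchange factor for initiation factor 2, fell.

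Genes for factors that assemble the ribosome lay mostly above 0. Of 38 genes of the small subunit processome, which folds and cleaves the precursor of 18S ribosomal RNA, 13 rose and 0 fell (34.2% called, median 0.151). Pwp2, one of its scaffold proteins, was at 42.0, 47.3, 45.7 and 42.9 CPM in siPAK4, against 33.2, 35.6, 35.2 and 34.0 CPM in siControl (0.37 on the log2 scale, adjusted p = 0.000907). Utp4 (0.29), Rrp9 (0.38) and Dcaf13 (0.28) of the same particle rose with adjusted p of 0.00766 or below.

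Of 48 genes of large subunit assembly, 19 rose and 3 fell (45.8% called, median 0.137). Sdad1, whose yeast relative Sda1 is needed for export of the large subunit, was at 61.1, 68.5, 62.1 and 68.0 CPM in siPAK4, against 47.9, 47.2, 45.4 and 48.2 CPM in siControl (0.46, adjusted p = 0.000153). Ddx24, a DEAD-box helicase (0.41, adjusted p = 0.000154), and Grwd1, which escorts newly made Rpl3 (0.39, adjusted p = 0.00142), rose, while Gnl3l, a nucleolar GTPase, fell (−0.29, adjusted p = 0.000846). Of 20 genes of RNA polymerase I and its factors, 3 rose and 0 fell (15% called, median 0.0952). These were Polr2k, a subunit shared by the nuclear polymerases (0.34), and Taf1b (0.28) and Taf1c (0.28) of the promoter factor SL1. Of 12 genes for proteins of H/ACA and other small nucleolar particles, 3 rose and 0 fell (25% called): Ruvbl1 (0.24), Ruvbl2 (0.23) and Dkc1 (0.23), the pseudouridine synthase. The shares called in these last lists, of the polymerase and of the small nucleolar particles, lay below the 26.9% of all tested genes called in either direction. They lay above the 12.4% called higher.

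The largest share of calls among these lists lay in 14 tested host transcripts of small nucleolar RNAs, many of which also begin with a TOP tract, as 3 of the 12 with a promoter in the table did here. Of the 14, 8 rose and 0 fell (57.1%, median 0.263). Zfas1 was at 29.95, 29.8, 31.2 and 28.1 CPM in siPAK4, against 21.1, 21.9, 21.7 and 23.3 CPM in siControl (0.44, adjusted p = 0.000336). Gas5 (0.23, adjusted p = 0.00562), Snhg20 (0.45, adjusted p = 0.00818) and Epb41l4aos (0.67, adjusted p = 0.00215) rose as well, each without overlap.

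Mitochondrial ribosomal proteins, which translate the few messages of the mitochondrial genome, had 15 higher and 1 lower of 78 (20.5% called, median 0.114). Proteasome subunits, another set of matched parts, had 6 higher and 0 lower of 38 tested (15.8% called, median 0.0524). These medians are descriptions, and differences between lists were not tested.

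**Figure D5:**
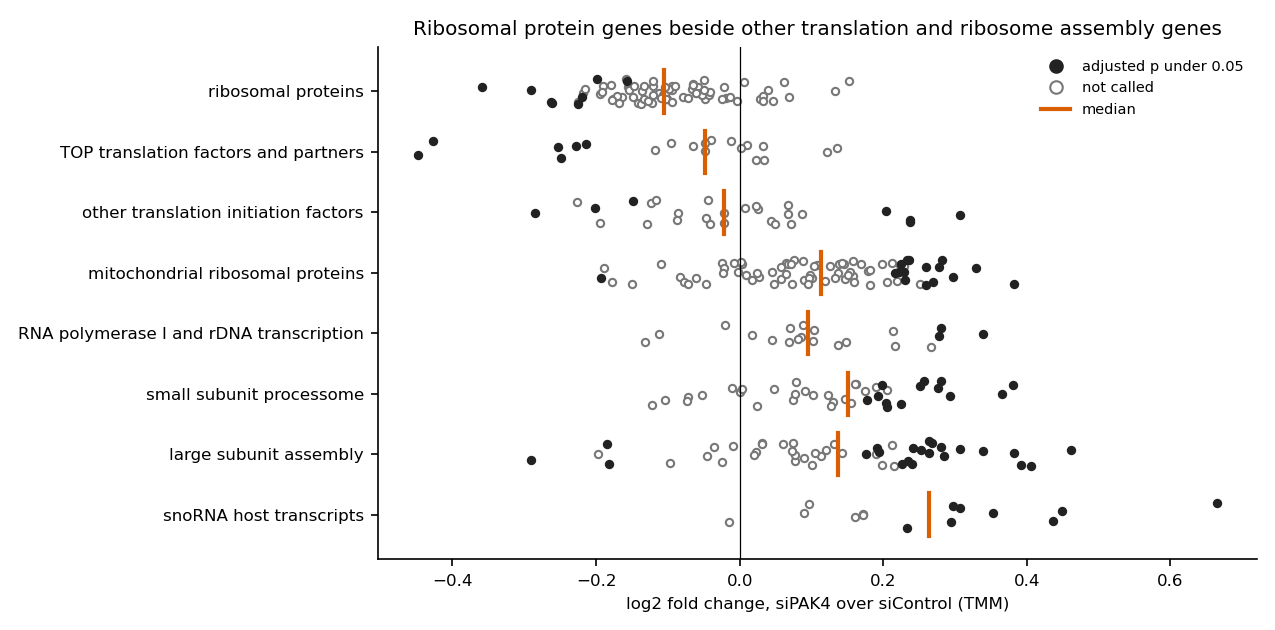
Log2 fold change of siPAK4 over siControl (x axis, TMM scaling) for each tested gene of 8 lists; filled points have an adjusted p under 0.05 in edgeR's test and the orange line is the median of the list. The ribosomal proteins have a median of −0.105, while the medians of the 5 lists from mitochondrial ribosomal proteins to host transcripts lie between 0.0952 and 0.263.

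In the mTORC1 pathway with LARP1 and the 4E-BPs, 4 of 27 genes rose and 2 fell (22.2% called, median −0.0214). Among all tested genes 26.9% were called. Rragd, a Rag GTPase that brings mTORC1 to the lysosome, was at 39.0, 45.6, 51.2 and 40.3 CPM in siPAK4, against 25.9, 24.8, 26.8 and 24.6 CPM in siControl (0.79, adjusted p = 5.86e-05). Akt1s1 (0.35) and Eif4ebp1 (0.27), which encode inhibitors of the complex and of cap-dependent initiation, rose, and Deptor (−0.54), another inhibitor of mTORC1, fell. Mtor (−0.13, adjusted p = 0.139), Rptor (0.09, adjusted p = 0.527), Larp1 (0.06, adjusted p = 0.709) and the S6 kinase gene Rps6kb1 (−0.02, adjusted p = 0.849) did not pass and are named after their values were seen.

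Of 14 genes for factors that bind promoters of ribosomal protein genes, 1 rose, Zfp143 (0.25, adjusted p = 0.0120), and 0 fell (7.14% called). Of 18 genes that handle nascent chains or stalled ribosomes, 6 rose and 1 fell (38.9% called, median 0.115). Ascc3, a helicase that splits collided ribosomes, was at 188, 198.1, 198.3 and 193 CPM in siPAK4, against 166, 139, 159.9 and 146 CPM in siControl (0.35, adjusted p = 0.00175). Gtpbp1 (0.29) and Zfp598 (0.32), whose human counterpart ZNF598 detects such collisions, rose too, and the very weakly expressed Nacad (0.161 ± 0.0928 CPM in siPAK4 and 0.419 ± 0.0191 CPM in siControl) fell.

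The printed start sequences can be set beside these values. Of the 8 genes that fell, 7 have a promoter in the table. None of these 7 had the tract exactly at the annotated start and 1, Rps24, had it within 2 bases, while among the 56 genes not called 14 had it at the start and 21 within 2 bases. Rps6, with its 10 pyrimidines, overlapped between groups. This difference in counts was not tested, nor was whether the annotated starts are those used in these cells.

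Most of these messages are short, and the family lay below other short genes. In the shortest of 5 length classes the 74 ribosomal protein genes had a median log2 fold change of −0.104, against 0.0239 for the other genes of that class. With an offset for length in each library, 17 ribosomal protein genes were lower and 2 higher, Rpl13 among them, with a median of −0.111. That was 22.9% of the family, against 29.3% of all tested genes called in that fit (2548 higher and 2717 lower).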

How the data were processed

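The authors deposited 1 table of 45777 genes with whole-number read counts beside FPKM and TPM. StringTie 2.1.3b, HISAT2 2.1.0, Bowtie2 2.3.4.1, bcl2fastq 2.20.0 and FastQC 0.11.7 are named with build mm10 per the submitters' processing notes. Libraries were made with a stranded mRNA kit, per the labels' protocols. The counting step, its strand setting and its treatment of reads with several matches are, in the sources used here, not given. The counts were used as deposited. The FPKM and TPM values deposited by the authors, scaled for depth and length, served for levels and alternatives, with pseudocounts of 1 and 0.1 before log2. A total of 0 value columns were left over. Replicates differed by more than sampling noise (chi-square per degree of freedom 12.8 to 68.6).

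Genes were kept by filterByExpr (minimum count 10) and compared by the quasi-likelihood test of edgeR 4.0.16 in R 4.3.3, with TMM scaling, robust estimation and Benjamini-Hochberg adjustment over all 17975 tested genes, at a threshold of 0.05. CPM are on TMM-scaled library sizes, and intervals are at 95%. All adjusted p-values of genes come from this fit. limma 3.58.1 and DESeq2 1.42.0 served as alternatives, with other scalings, filters, a length offset, a replicate block and each library left out. Intervals from counts cover the spread of these libraries. Gene models matched RefSeq for 45679 identifiers, which gave coordinates counted from 1, and implied lengths come from counts and FPKM. The code was tested on simulated data.

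Family members and lists were chosen with earlier results of these data known. Genes are named by a rule: up to 10 members with the smallest adjusted p per direction, the 5 highest and 3 lowest by TPM, paralogs with their ancestral genes, Rps6, Rpl5, Rpl11, Rplp0, Rpl13a, Rps19, Rpsa and Pak4, and up to 4 genes of each list. Rpl13, Rps16, Rps9, Rpl4, Mtor, Rptor, Larp1 and Rps6kb1 were added after their values were seen. The values of some family members and other listed genes are not reported here.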

Additional observations from a re-analysis of the deposited data

Results flagged for a closer look

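A library lay far from the other 3 of its group in 9 of 156 groups of 4 examined, where chance marks about 5% of groups. Of these, 5 concern siPAK4 replicate 3. It was high for Rpl13 (503.7 CPM, the others 448 to 454.3 CPM), for Rpsa (1156 CPM, the others 1036 to 1049 CPM) and for Eef1b2 (332.3 CPM, the others 283 to 290.0 CPM), and low for Gtpbp1 (28.88 CPM, the others 33.39 to 33.87 CPM). Its log2 ratio of Rpl36al to Rpl36a was −0.6891, with the others between −0.8675 and −0.8403. Other siPAK4 libraries stood low as well: Gas5 in replicate 1 (67.09 CPM, the others 72.23 to 72.99 CPM) and Snhg20 in replicate 4 (4.906 CPM, the others 5.851 to 5.923 CPM). In siControl, Rpl3 was low in replicate 1 (760.6 CPM, the others 852.5 to 865.9 CPM) and Rps26 was low in replicate 3 (218.9 CPM, the others 247.7 to 250.7 CPM). For Rps26 the log2 fold change lay between −0.25 and −0.16 when each library was left out in turn.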

How the results depend on the processing

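Scaling and single libraries limit the family's calls most. Ribosomal protein genes called lower numbered 1 with library totals, 5 with upper quartile scaling, 0 and 1 with FPKM (pseudocounts 1 and 0.1), 4 with TPM, 17 with the length offset, 5 with the replicate block, and 2 to 28 without 1 library. Those called higher numbered 3 with library totals, 1 with FPKM at either pseudocount, 1 with TPM and 2 with the length offset, and 0 without 1 library. DESeq2 gave 12 lower, limma-voom 8 and no low count filter 6. The share of the family called in either direction lay below that of all tested genes in every setting except 1. That was the fit without siPAK4 replicate 3 (33.7% of the family, against 30.2% of all tested genes). The family median was −0.0123 with FPKM (pseudocount 1) and −0.0124 (0.1), and the family's difference in share became −0.462 percentage points of TPM, against −0.042 of counts. Over all genes, 3877 were higher with library totals (67.6% of calls, against 46.1% with TMM), 3619 higher and 1712 lower with FPKM (pseudocount 1), and 3616 and 1722 (0.1). With library totals, FPKM (1) and FPKM (0.1), the processome had 23, 21 and 22 genes higher and large subunit assembly 33, 30 and 30, while TOP translation factors had 3, 1 and 1 lower, and 3 with TPM.

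The labels state no pairing of replicate numbers. Same-numbered libraries of siPAK4 and siControl correlated at 0.178, −0.08, 0.274 and −0.169 for replicates 1 to 4. The highest correlation of each siPAK4 library with a siControl library of another number was 0.153, 0.325, 0.381 and 0.181. These values do not settle whether the libraries were paired. The replicate block left differences of −0.20 (Rpl22l1/Rpl22), 0.21 (Rpl7l1/Rpl7), 0.16 (Rpl36al/Rpl36a) and 0.38 (Rps4l/Rps4x) with an adjusted exact p of 0.188, in a test of 4 pairs that cannot pass. Without 1 library they lay at −0.23 to −0.16, 0.19 to 0.25, 0.12 to 0.18 and 0.31 to 0.44. The adjusted exact p was then 0.0571 to 0.0857, so none of these ratios kept its call at 0.05. Without 1 library Rps27l/Rps27 lay at −0.0414 to 0.0532.

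Named genes that changed sign were not called in either setting. With library totals these were Rpl11 (0.0090), Rpl19 (0.027), Rpl26 (0.017) and Rpl3 (0.084). With FPKM at either pseudocount they were Rpl19 (0.041), Rpl26 (0.021), Rpl3 (0.0746 with 1 and 0.0747 with 0.1) and Rpl5 (0.0743 and 0.0744), and with TPM Rpl3 (0.0194) and Rpl5 (0.0191). Without 1 library, Rpl3 lay at −0.0465 to 0.0139, Rpl32l at −0.0157 to 0.0961, Rpl36al at −0.0638 to 0.0368, Rpl39l at −0.269 to 0.175, Rps6 at −0.0151 to 0.0611 and Rps2 at −0.00088 to 0.0767. The causes were not tested.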
